A study of Mus musculus with 14 samples.

Results

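Autosomal genes of germ cells and meiosis, 10 in number, were followed through 12 peak lists of mouse neural stem cells: Sycp1, Sycp2, Sycp3, Dazl, Ddx4, Mov10l1, Zpbp2, Stra8, Mael and Tdrd1. They are 10 of the 20665 autosomal protein-coding genes of the RefSeq annotation. The list was in part chosen by H3K27me3 lengths measured earlier in the same libraries, from which Sycp1, Sycp2, Dazl, Mov10l1 and Zpbp2 were known to carry peaks. The H3K27me3, Suz12 and Ring1b values below therefore describe chosen genes, and no test was run on them. For each gene, the length under peaks was measured over the gene and 10 kb to either side, a stretch called its window.

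Chromatin immunoprecipitation followed by sequencing (ChIP-seq) had been done on cells that the labels call PDGF Neural Stem Cells and the design text of the series describes as mouse DIPG cells, after the childhood brainstem tumour diffuse intrinsic pontine glioma. The cells expressed histone H3.3 either with the K27M substitution (K27M) or in its wild-type form (H3WT), and were kept for 12 days in 3 µM EPZ6438 (EPZ), an inhibitor of the H3K27 methyltransferase Ezh2, or in DMSO, its solvent. All groups grew in the same medium with epidermal and basic fibroblast growth factors. H3K27me3 had 2 libraries in each of the groups K27M EPZ, H3WT EPZ, K27M DMSO and H3WT DMSO, and Suz12 and Ring1b had 1 library per genotype, all in DMSO. The labels do not state how the histone was introduced, how many clones were used, or whether the 2 replicates of a group were separate cultures.

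H3K27me3 is set by Polycomb repressive complex PRC2, of which Suz12 is a core subunit and Ezh2 the enzyme. Ring1b is the ubiquitin ligase at the centre of Polycomb repressive complex PRC1, and its variant form PRC1.6 contains the DNA-binding partners E2f6, Mga and Max, which read E2F-type and E-box sequences and are known to keep germline genes silent outside the germ line. Germline genes are also silenced by DNA methylation of CpG-rich promoters, and H3K27me3 usually sits on CpG-rich DNA that lacks such methylation. The K27M histone is known to inhibit PRC2.

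The promoters of all 10 genes were in the RefSeq table of GRCm38.p6, and those of 6 genes are shown because they span the range found: the E-box and the E2F-type hexamer together, neither of them, and a start under H3K27me3 peaks. Each runs 5′ to 3′ on the gene's own strand, from 250 bases before the start to 50 after it. Capitals mark the E-box CACGTG or the E2F-type hexamer TCCCGC and its reverse complement GCGGGA, searched on both strands, and no match overlaps another. Sycp1 lies at chr3:102936051-102936350 on the minus strand, Sycp3 at chr10:88459337-88459636 on the plus strand, Ddx4 at chr13:112652261-112652560 on the minus strand, Dazl at chr17:50293571-50293870 on the minus strand, Sycp2 at chr2:178407609-178407908 on the minus strand and Zpbp2 at chr11:98550847-98551146 on the plus strand.

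Sycp1: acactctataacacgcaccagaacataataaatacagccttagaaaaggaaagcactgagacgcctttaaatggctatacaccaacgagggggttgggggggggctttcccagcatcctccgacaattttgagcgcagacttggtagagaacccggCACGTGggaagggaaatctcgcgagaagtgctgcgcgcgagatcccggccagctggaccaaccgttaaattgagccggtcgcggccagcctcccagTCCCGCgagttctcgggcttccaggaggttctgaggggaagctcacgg

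Sycp3: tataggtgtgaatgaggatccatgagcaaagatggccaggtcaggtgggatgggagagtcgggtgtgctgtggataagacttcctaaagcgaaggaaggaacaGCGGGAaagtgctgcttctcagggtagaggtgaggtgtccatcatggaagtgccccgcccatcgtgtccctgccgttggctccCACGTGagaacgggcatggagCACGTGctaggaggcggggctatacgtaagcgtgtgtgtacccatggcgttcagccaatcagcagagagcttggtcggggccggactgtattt

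Ddx4: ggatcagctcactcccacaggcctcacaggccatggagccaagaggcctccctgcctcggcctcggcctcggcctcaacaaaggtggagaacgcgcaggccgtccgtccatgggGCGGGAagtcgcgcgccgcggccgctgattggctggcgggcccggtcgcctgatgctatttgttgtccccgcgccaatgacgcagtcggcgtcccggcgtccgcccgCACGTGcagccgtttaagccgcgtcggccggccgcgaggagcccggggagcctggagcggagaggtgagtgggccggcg

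Dazl: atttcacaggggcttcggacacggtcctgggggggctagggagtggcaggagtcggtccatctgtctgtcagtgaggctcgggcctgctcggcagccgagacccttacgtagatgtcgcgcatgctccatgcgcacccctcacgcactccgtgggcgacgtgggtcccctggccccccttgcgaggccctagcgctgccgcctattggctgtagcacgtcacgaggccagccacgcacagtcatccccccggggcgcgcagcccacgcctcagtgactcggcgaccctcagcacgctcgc

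Sycp2: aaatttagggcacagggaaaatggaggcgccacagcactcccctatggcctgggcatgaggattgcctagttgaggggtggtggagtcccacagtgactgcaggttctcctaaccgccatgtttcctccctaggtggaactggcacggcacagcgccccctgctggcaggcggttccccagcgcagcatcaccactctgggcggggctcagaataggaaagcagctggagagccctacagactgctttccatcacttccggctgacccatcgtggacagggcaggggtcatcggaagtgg

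Zpbp2: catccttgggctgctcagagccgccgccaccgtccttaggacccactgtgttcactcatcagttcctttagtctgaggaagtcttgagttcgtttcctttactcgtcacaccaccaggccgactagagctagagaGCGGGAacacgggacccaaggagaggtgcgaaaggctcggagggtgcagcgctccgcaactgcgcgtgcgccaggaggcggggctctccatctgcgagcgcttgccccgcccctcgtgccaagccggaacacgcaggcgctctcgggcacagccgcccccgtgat

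The E-box was found in 6 of the 10 promoters (60%), against 7.97% of the 16457 autosomal promoters of the same length. The genes were Sycp1, Sycp3, Ddx4, Mov10l1, Mael and Tdrd1, with 2 matches in Sycp3 and 1 in each of the others. The E2F-type hexamer was found in 5 of the 10 (50%), against 26.4% of all promoters, in Sycp1, Sycp3, Ddx4, Zpbp2 and Mael. Both occurred together in Sycp1, Sycp3, Ddx4 and Mael (40%), against 2.82% of all promoters. Sycp2, Dazl and Stra8 had neither in this window. In the 117 promoters of other germline genes that the table holds, the shares were 17.9% for the E-box, 30.8% for the E2F-type hexamer and 7.69% for both. A match is a description of letters and does not show that a factor binds there.

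The promoters also differed in CpG content. Ddx4 had 38 CpG dinucleotides in its 300 bases, more than 93.6% of all promoters, and Dazl had 28. Zpbp2 followed with 26, Mael with 24, Sycp1 with 21, Mov10l1 and Tdrd1 with 20 each, Sycp3 with 15, and Sycp2 and Stra8 with 10 each. The median of the 10 genes was 20.5 CpG dinucleotides, against 14 for all promoters and 14 for the other germline genes.

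**Figure D1:**
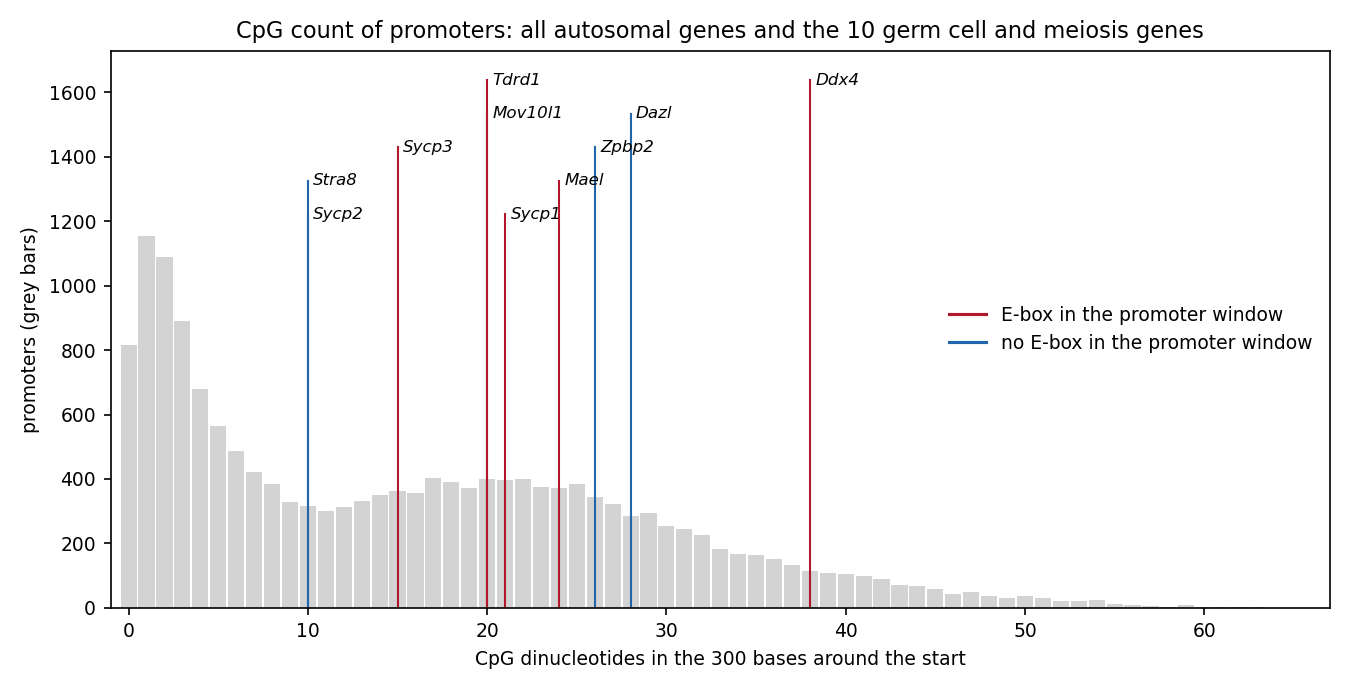
The horizontal axis gives the number of CpG dinucleotides in the 300 bases around a start, and the grey bars count all 16457 autosomal promoters on the vertical axis; each line marks 1 of the 10 genes, red with an E-box and blue without, and its height only separates the names. Ddx4 stands at 38, and Sycp2 and Stra8 stand at 10.

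In DMSO, most of the 10 genes lay at H3K27me3 peaks in H3WT cells and had less of their window under peaks in K27M cells. Peaks touched the windows of 4 genes in replicate 1 and 6 in replicate 2 of K27M DMSO, against 7 and 8 in the same replicates of H3WT DMSO. Over all autosomal protein-coding genes the shares with a peak were 7.13% and 20% in the K27M libraries, and 20.7% and 42.9% in the H3WT libraries. Sycp1, Sycp2, Dazl, Mov10l1 and Zpbp2 were listed with peaks already known, so higher values among the 10 are partly built in. The windows of the 10 genes were longer than most, with a median of 60.6 kb against 37.5 kb over all genes, so a peak had more room to fall in them. The share of window length under peaks takes window length into account, but not how the genes were chosen. Peaks covered 7.57% and 15.1% of the 10 windows in K27M DMSO, against 23.8% and 42.9% in H3WT DMSO. For all genes together the same shares were 0.876% and 2.31% in K27M DMSO and 2.20% and 6.54% in H3WT DMSO. Sycp2, listed with peaks already known, alone gave 29.9 of the 48.7 kb under peaks in replicate 1 of K27M DMSO. In replicate 1 of H3WT DMSO it gave 64.8 of the 153 kb. The higher shares of the 10 are therefore also partly built in. The median gene of the 10 had 0 and 3.47 kb under peaks in K27M DMSO and 7.25 and 19.08 kb in H3WT DMSO, where the median over all genes was 0 kb in each of these libraries.

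**Figure D2:**
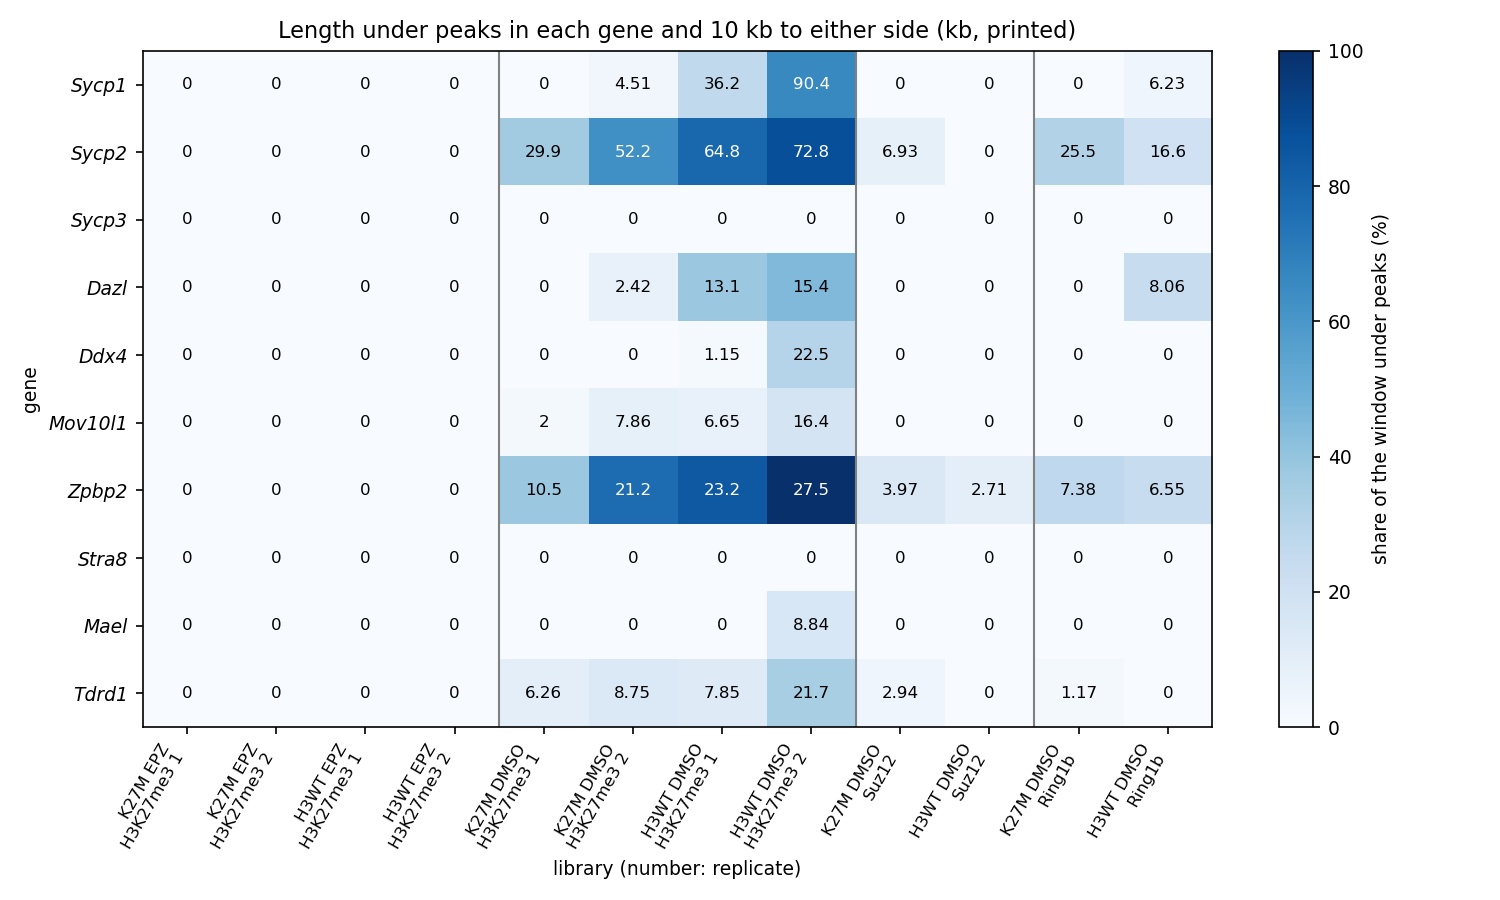
Rows are the 10 genes and columns the 12 libraries, with K27M before H3WT within each treatment and antibody; the printed number is the length under peaks in kb and the colour the share of the gene's window in percent. The 4 EPZ columns hold only 0, Sycp3 and Stra8 are at 0 throughout, and Sycp2 and Zpbp2 are the darkest rows.

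The libraries differed in how much was called, and that difference runs with the values above. H3K27me3 peaks covered 13.0 and 41.6 Mb of the autosomes in the K27M DMSO libraries and 39.2 and 150 Mb in the H3WT DMSO libraries. In the EPZ libraries they covered 1.103 to 2.36 Mb. Suz12 peaks covered 3.95 Mb in K27M and 2.05 Mb in H3WT, and Ring1b peaks 7.41 Mb in K27M and 5.12 Mb in H3WT. A list shows where the authors' peak caller passed its threshold, not how much mark was present, and read depth is unknown. Replicate 2 of K27M DMSO and replicate 1 of H3WT DMSO covered similar lengths of the autosomes, and the 10 genes were therefore also read between these 2 libraries, a pairing chosen after their values were seen. Of the 7 genes with a peak in either, 5 had less length under peaks in that K27M library and 2 had more, while over all genes with a peak in either 46.2% had less and 52.6% had more. The 2 with more were Mov10l1 and Tdrd1. The summed length over the 10 windows was 96.9 kb in that K27M library and 153 kb in that H3WT library. Of the 5 genes with less, all but Ddx4 were listed with peaks already known. Nothing is therefore concluded from the contrast with 46.2% or from the summed lengths. The part that depth plays in the differences between K27M and H3WT was not tested. None of 9 neural stem and glial progenitor genes, among them Sox2, Nes and Olig2, had an H3K27me3 peak within 1 kb of its start in any of the 8 H3K27me3 libraries. Since such a peak was called at only 3.75% and 8.02% of all genes with a known start in the K27M DMSO libraries and 8.53% and 16.3% in the H3WT DMSO libraries, this does not show the cell type.

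Of the 10 genes, 7 had a peak in both H3WT DMSO libraries, against 20.6% of all genes. All of these 7 except Ddx4 and Tdrd1 were listed with H3K27me3 peaks already known, so the higher share is largely built in. Among these 7, Sycp2, Mov10l1, Zpbp2 and Tdrd1 had a peak in both K27M DMSO libraries, Sycp1 and Dazl in 1 of the 2, and Ddx4 in neither. Of all genes with a peak in both H3WT DMSO libraries, 34.4% had one in both K27M DMSO libraries, 44.2% in 1 and 21.4% in neither. Sycp1, Sycp2, Dazl, Ddx4 and Zpbp2 had less length under peaks in both K27M DMSO libraries than in either H3WT DMSO library. That is 5 of the 8 genes with any DMSO peak, where the share over all genes with any DMSO peak was 26%. The opposite order held for 0 of the 8 and for 0.314% of all such genes. Of the 5, all but Ddx4 were among the genes known to carry peaks, so nothing is concluded from the contrast with 26%. With 2 libraries against 2 the smallest exact p is 0.333, so no single gene could pass a threshold of 0.05.

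The synaptonemal complex is the protein zipper that holds paired chromosomes together in meiosis. Sycp1 encodes its transverse filament and lies on chromosome 3 from 102818499 to 102936100. Its window had 0 and 4.51 kb under H3K27me3 peaks in K27M DMSO, against 36.2 and 90.4 kb in H3WT DMSO. Both H3WT libraries were far above both K27M libraries, and the 2 H3WT libraries themselves differed widely. The mean was 2.26 ± 3.19 kb in K27M DMSO and 63.3 ± 38.3 kb in H3WT DMSO (SD, n = 2 each). In H3WT cells the window held 11 separate peaks in each replicate. In replicate 1 the first began 1.82 kb after the start. In replicate 2 the first after the start began at 0.552 kb, and 2 of the 11 lay upstream of it, in part over Nr1h5. The 3 peaks of K27M replicate 2 were 1.00, 2.42 and 1.09 kb wide and lay 73.3 to 109 kb into the gene, all of them under peaks of H3WT replicate 2. The E-box and E2F-type matches shown above lie in the 300 bases that no peak reached in any library.

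Sycp2, a component of the lateral elements, had the most length under peaks of the 10 genes in K27M cells. It lies on chromosome 2 from 178345295 to 178407776. Its window had 29.9 and 52.2 kb under peaks in K27M DMSO, against 64.8 and 72.8 kb in H3WT DMSO, and the groups did not overlap. Within replicate 1 the K27M length was 46.1% of the H3WT length, and within replicate 2 it was 71.7%. A block across the start ended at 26.96 and 30.0 kb in the K27M replicates and at 30.6 kb in both H3WT replicates. Past that point the K27M libraries had no peak in replicate 1 and 4 peaks of 2.21 to 5.51 kb in replicate 2, whereas nearly the whole rest of the gene lay under peaks in both H3WT libraries. The stretch at the start was the one under peaks in all 4 DMSO libraries, and the promoter in it held 10 CpG dinucleotides and neither motif.

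Sycp3, the other main lateral element protein, lies on chromosome 10 from 88459587 to 88473236 and overlaps Chpt1 at its far end. It had no peak in its window in any of the 12 libraries, and its promoter is the one with 2 E-boxes. The 3 synaptonemal complex genes of the list thus ranged over the whole scale, with Sycp2 covered most in K27M cells, Sycp1 at 1 K27M library of 2 and Sycp3 at none.

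**Figure D3:**
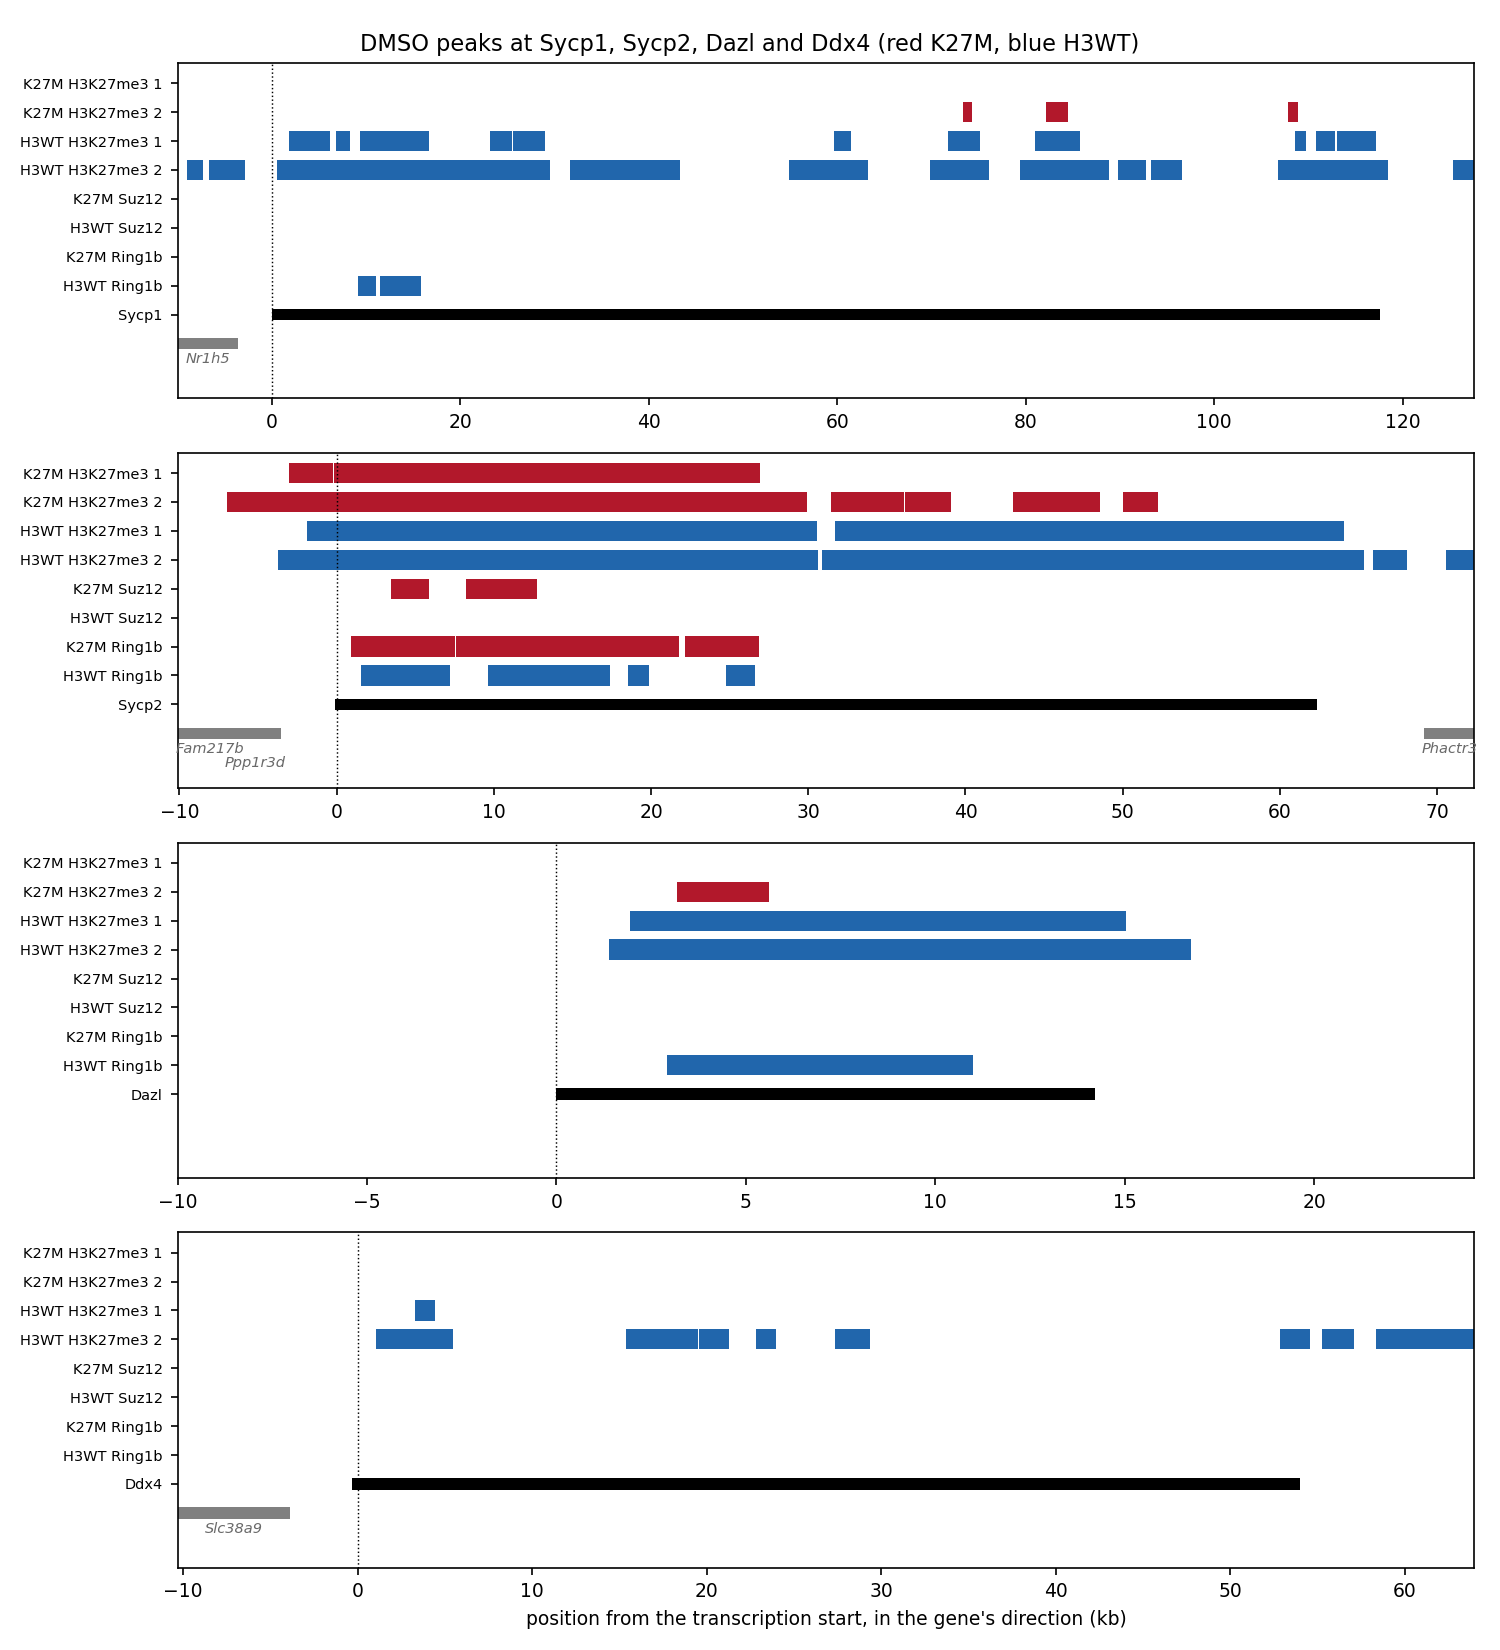
Each panel shows the DMSO peaks of 1 gene as bars, by library, with red for K27M and blue for H3WT; the horizontal axis is the distance in kb from the transcription start in the gene's direction, the black bar is the gene and grey bars are neighbouring genes. At Sycp2 the red bars lie mainly at and after the start, at Sycp1 and Dazl they are few and narrow, and at Ddx4 there are none.

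Dazl encodes an RNA-binding protein that germ cells need to enter meiosis, and lies on chromosome 17 from 50279393 to 50293620 with no other protein-coding gene in its window. Its window had 0 and 2.42 kb under H3K27me3 peaks in K27M DMSO, against 13.1 and 15.4 kb in H3WT DMSO. The H3WT libraries agreed closely here: each had a single peak over nearly the entire gene, from 1.93 to 15.0 kb after the start in replicate 1 and from 1.38 to 16.7 kb in replicate 2. The K27M peak covered 3.18 to 5.60 kb, inside the H3WT peaks. The mean was 1.21 ± 1.71 kb in K27M DMSO and 14.2 ± 1.60 kb in H3WT DMSO (SD, n = 2 each). In both H3WT libraries the CpG-rich promoter printed above stayed outside the peak.

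Stra8, which encodes the retinoic acid-induced regulator that starts the meiotic programme, lies on chromosome 6 from 34920163 to 34939344. It had no peak in any of the 12 libraries. Its promoter had 10 CpG dinucleotides, the same number as that of Sycp2, whose start lay under peaks in all 4 DMSO libraries.

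The piRNA pathway silences transposons in germ cells with small RNAs bound by Piwi proteins, and much of it takes place in germ granules. Ddx4, also known as Vasa, is a helicase of these granules and lies on chromosome 13 from 112598333 to 112652633. Its window had 0 and 0 kb under peaks in K27M DMSO, against 1.15 and 22.5 kb in H3WT DMSO. The H3WT replicates shared only a peak after the start, at 3.31 to 4.45 kb in replicate 1 and at 1.02 to 5.46 kb in replicate 2. The other 7 peaks of replicate 2 had no counterpart in replicate 1, so the call of a loss rests on 1 narrow peak there. Mael encodes Maelstrom, a protein needed to silence transposons, and lies on chromosome 1 from 166201385 to 166238744. It had peaks in H3WT DMSO replicate 2 only, where 4 peaks gave 8.84 kb, and 0 kb in both K27M DMSO libraries and in H3WT DMSO replicate 1. Its first peak began 1.84 kb after the start.

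Mov10l1 and Tdrd1 carried their peaks at the far end of the gene, next to or over a neighbour. Mov10l1 encodes the helicase that processes piRNA precursors and lies on chromosome 15 from 88982891 to 89055152. Its window had 1.999 and 7.86 kb under peaks in K27M DMSO, against 6.65 and 16.4 kb in H3WT DMSO, and the groups overlapped. Every peak lay at least 64.5 kb after the start, and 28.4% to 63.5% of the covered length in each DMSO library lay over Panx2, a channel protein gene of the pannexin family. With peaks that reach another gene left out, an alternative chosen after seeing the data, the mean difference of K27M minus H3WT was 0.968 kb in place of -6.60 kb, so its direction depends on peaks shared with Panx2.

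Tdrd1 encodes a Tudor-domain scaffold of germ granules and lies on chromosome 19 from 56826171 to 56870012. Its window had 6.26 and 8.75 kb under peaks in K27M DMSO, against 7.85 and 21.7 kb in H3WT DMSO, and again the groups overlapped. In 3 of these 4 libraries the window held a single peak, beginning 43.7 to 45.3 kb after the start of Tdrd1 and reaching over the start of Vwa2 at 48.2 kb. Only H3WT replicate 2 also had peaks in the first part of the gene, the nearest beginning 0.011 kb after its start. In K27M DMSO 52.8% and 56.1% of the covered length lay over Vwa2, against 42.0% in H3WT replicate 1 and a smaller share in H3WT replicate 2.

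Zpbp2 encodes a zona pellucida-binding protein of the sperm acrosome and lies on chromosome 11 from 98551097 to 98558665. Its window of 27.6 kb was the shortest of the 10 and the most fully covered. It had 10.5 and 21.2 kb under peaks in K27M DMSO, against 23.2 and 27.5 kb in H3WT DMSO, without overlap between the groups. The mean difference of K27M minus H3WT was -9.54 kb, but -1.07 kb with peaks that overlap another gene left out, a choice made after seeing the data, -3.12 kb over the gene body alone and -17.3 kb with 25 kb to either side. Zpbp2 and Sycp2 were the genes whose start lay under a peak, and this held for both in all 4 DMSO libraries. They were thus 2 of the 7 genes with a peak in H3WT replicate 1 and 2 of the 8 in H3WT replicate 2, beside 33.5% and 28% of all marked genes in the same libraries. The block at Zpbp2 also ran upstream of the start into Ikzf3, a lymphoid transcription factor gene whose near end lies 5.07 kb away, and 17.9% to 40.7% of the covered length lay over Ikzf3.

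**Figure D4:**
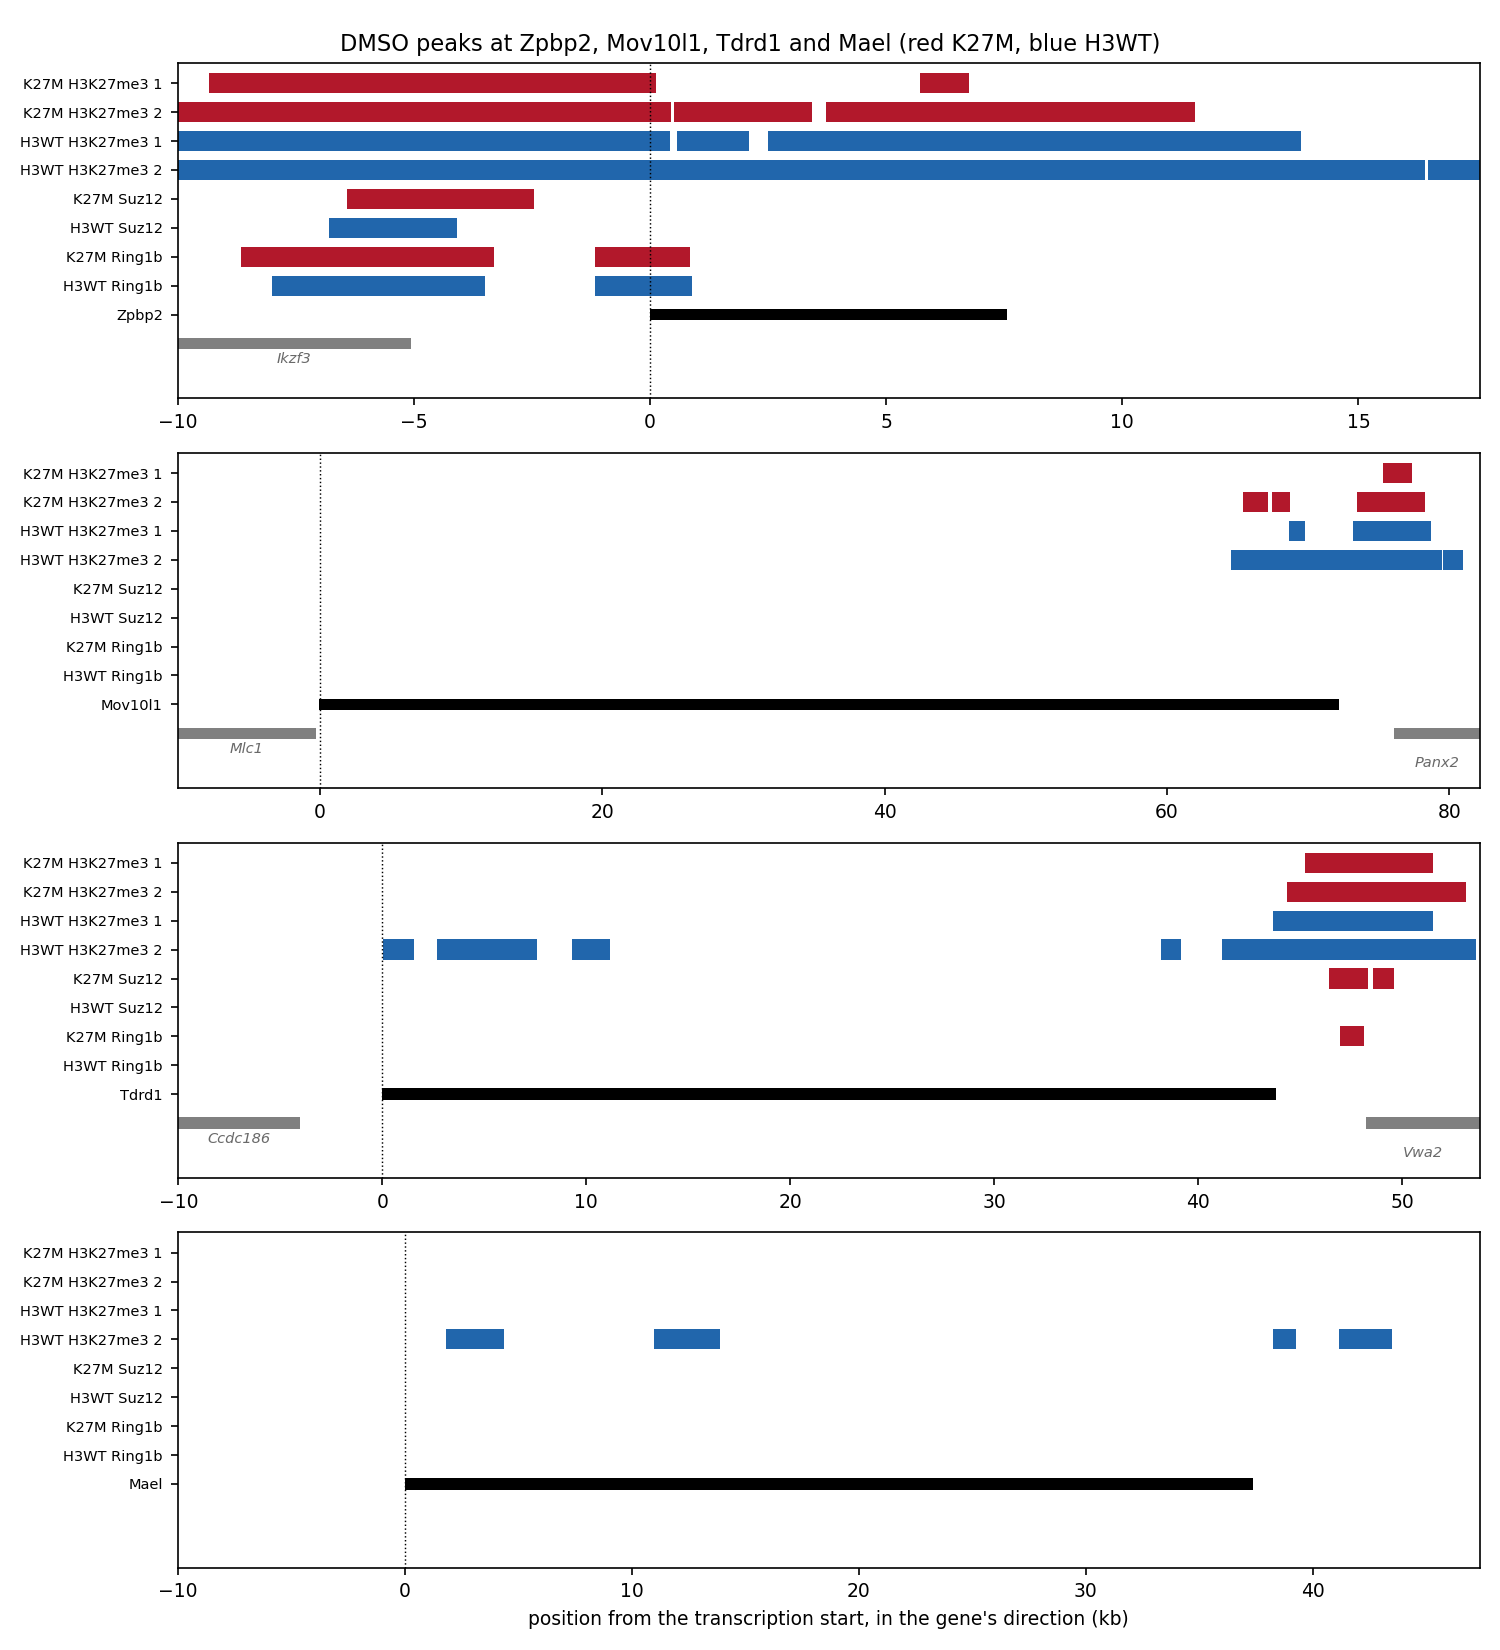
Peaks of the DMSO libraries at Zpbp2, Mov10l1, Tdrd1 and Mael, drawn as bars with red for K27M and blue for H3WT against the distance in kb from the transcription start; black bars are the genes and grey bars their neighbours. The peaks of Mov10l1 and most of those of Tdrd1 lie at the far end near Panx2 and Vwa2, and those of Zpbp2 run across its start towards Ikzf3.

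Within replicate 1 and within replicate 2, Sycp1, Sycp2, Dazl, Ddx4, Mov10l1, Zpbp2 and Tdrd1 each had less length under peaks in K27M than in H3WT; these are the 7 genes with a peak in both H3WT libraries, and of all genes with such peaks 92.7% had this order. At the 6 genes with a K27M peak, 93.7% to 100% of the K27M length lay under H3WT peaks of the same replicate number. The H3WT lists were far longer, with 39.2 and 150 Mb of autosomes against 13.0 and 41.6 Mb in K27M. All 6 genes had peaks in both H3WT libraries, and all but Tdrd1 were listed with peaks already known. The same share over all genes was not computed. At 6 of the 8 genes with H3K27me3 in DMSO no peak lay over the start in any library. A start without a peak was also usual elsewhere. Of all marked genes with a known start, only 33.5% and 28% had it under a peak in the H3WT DMSO libraries. The 6 of 8 is thus near that background. At Sycp1, Dazl, Ddx4 and Mael the first H3WT peak after the start began 0.552 to 3.31 kb into the gene. Between the H3WT DMSO libraries this distance ranged from 0.011 to 43.7 kb at Tdrd1 and from 64.5 to 68.7 kb at Mov10l1.

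Under Ezh2 inhibition no peak was called at any of the 10 genes. With EPZ the windows of all 10 held 0 kb under H3K27me3 peaks in both K27M and both H3WT libraries. Over all genes, 0.794% and 1.42% had a peak in the K27M EPZ libraries and 1.23% and 1.09% in the H3WT EPZ libraries, so 0 of 10 is near that background. The nearest EPZ peak to any of the 10 lay 220.9 kb from Zpbp2, in H3WT replicate 1, and the greatest distance was 23.4 Mb, at Dazl in K27M replicate 1. These lists hold only called peaks, so a lower level of the mark was not detectable.

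Suz12 peaks were found at 3 of the 10 genes in K27M cells and at 1 in H3WT cells, where 4.2% and 2.41% of all genes had one, with 1 library per genotype and no replicate check. The K27M Suz12 list was also the longer over the autosomes, with 3.95 Mb against 2.05 Mb in H3WT. Zpbp2 had 3.97 kb under Suz12 peaks in K27M and 2.71 kb in H3WT. Sycp2 had 6.93 kb in K27M and 0 kb in H3WT, and Tdrd1 had 2.94 kb in K27M and 0 kb in H3WT. All of this length lay under the H3K27me3 peaks of both replicates of the same genotype. Sycp2 and Zpbp2 were listed with H3K27me3 peaks already known, and the same share over all genes was not computed. At Zpbp2 the Suz12 peaks lay upstream of the start, no nearer than 2.45 kb in K27M and 4.09 kb in H3WT, with 34.0% and 63.9% of their length over Ikzf3. At Tdrd1 a Suz12 peak covered the start of Vwa2. Sycp2 was thus the one gene with Suz12 peaks inside its own body, 3.46 to 12.7 kb after the start.

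Ring1b peaks were found at 3 of the 10 genes in K27M cells and at 4 in H3WT cells, where 8.29% and 7.22% of all genes had one, and the genes differed in which genotype had them. Sycp2 had 25.5 kb under Ring1b peaks in K27M and 16.6 kb in H3WT, and its H3K27me3 length was lower in K27M. The K27M Ring1b list was also the longer over the autosomes, with 7.41 Mb against 5.12 Mb in H3WT. Zpbp2 had 7.38 kb in K27M and 6.55 kb in H3WT, including a peak across its own start in both. Tdrd1 had 1.17 kb in K27M, beside the start of Vwa2, and 0 kb in H3WT. Sycp1 and Dazl ran the other way: Sycp1 had 0 kb in K27M and 6.23 kb in H3WT, and Dazl 0 kb in K27M and 8.06 kb in H3WT. Sycp1 and Dazl are also the genes with a peak in 1 of the 2 K27M H3K27me3 libraries.

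At the 5 genes with Ring1b peaks, 90.4% to 100% of the Ring1b length lay under H3K27me3 peaks of the same genotype, in each replicate. Of these genes, all but Tdrd1 were listed with H3K27me3 peaks already known. The same share over all genes with Ring1b peaks was not computed. At Dazl the Ring1b peak ran from 2.93 to 11.0 kb after the start, inside the single H3K27me3 peak of H3WT cells, and at Sycp1 the 2 Ring1b peaks lay 9.15 to 15.8 kb after the start. Of the 6 genes with an E-box in the promoter, none had a Ring1b peak over its own start, where 4.84% of all genes with a known start had one in K27M and 4.13% in H3WT, so 0 of 6 is near that background. No Ring1b peak was called in the windows of Sycp3, Ddx4, Mov10l1, Stra8 and Mael in either genotype.

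Other germline genes were read from 5 wider lists of meiosis, germ cell, piRNA, sperm and oocyte genes, with 152 autosomal genes besides the 10. In K27M DMSO 13.2% and 34.2% of them had a peak in their window, against 31.6% and 63.2% in H3WT DMSO. These shares were above those of all genes given earlier and below those of the 10, which were in part chosen by their peaks. Window lengths of the 152 were not compared with those of all genes, so the part that window length plays was not tested. Of the 48 with a peak in both H3WT DMSO libraries, 19 (39.6%) had one in both K27M DMSO libraries, 21 (43.8%) in 1 and 8 (16.7%) in neither, near the 34.4%, 44.2% and 21.4% over all genes. Suz12 peaks were at 11 of the 152 in K27M (7.24%) and 7 in H3WT (4.61%), against 4.2% and 2.41% of all genes. Ring1b peaks were at 25 in K27M (16.4%) and 21 in H3WT (13.8%), against 8.29% and 7.22% of all genes. The K27M peak lists of Suz12 and Ring1b were also the longer over the autosomes. By list, the genes with a peak in both H3WT DMSO libraries were 13 of 39 for the synaptonemal complex and recombination, 13 of 34 for meiotic entry and germ cell regulators, 6 of 20 for the piRNA pathway, 9 of 39 for spermatids and sperm, and 7 of 20 for oocytes, where the share over all genes was 20.6%.

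**Figure D5:**
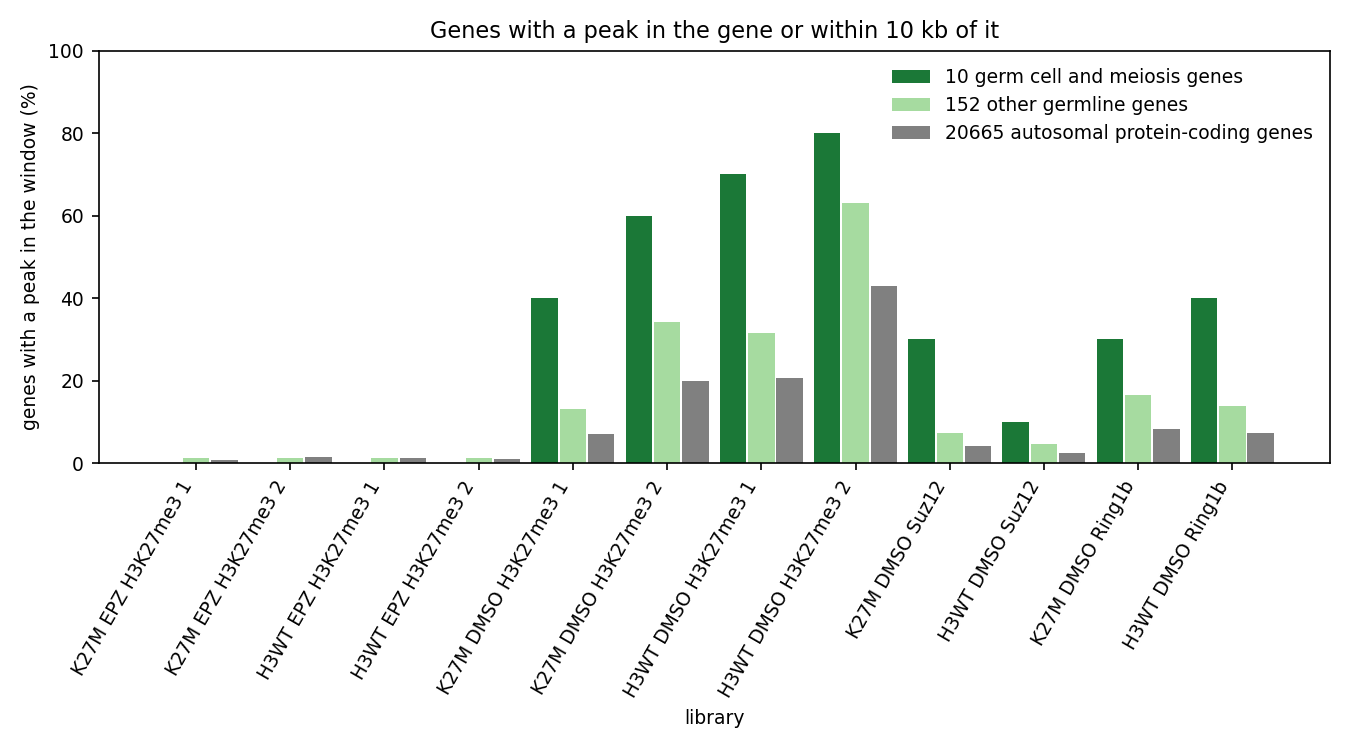
Bars give the percentage of genes with a peak in the gene or within 10 kb of it, by library, for the 10 genes (dark green), 152 other germline genes (light green) and all 20665 autosomal protein-coding genes (grey). In the DMSO libraries the dark green bars are the highest throughout, and with EPZ they are at 0. The 10 genes were in part chosen by their H3K27me3 peaks.

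The genes with the greatest summed length in each list included, like the 10, both genes with peaks in both K27M DMSO libraries and genes without. Spag6 had an order seen at none of the 10, with more length under peaks in K27M. For the synaptonemal complex and recombination they were 4930447C04Rik, Meiob and Rad21l. The gene 4930447C04Rik, which RefSeq lists under the synonym Six6os1, a synaptonemal complex protein, had 54.98 and 57.8 kb under H3K27me3 peaks in K27M DMSO, against 57.8 and 57.8 kb in H3WT DMSO, which is its whole window. It also had 48.9 kb of Ring1b in K27M and 38.4 kb in H3WT, and 8.46 kb of Suz12 in K27M and 0 kb in H3WT. Meiob, a single-strand DNA-binding protein of meiotic recombination, had 40.0 and 49.9 kb in K27M DMSO, against 47.5 and 52.1 kb in H3WT DMSO, with 29.3 kb of Ring1b in K27M and 12.3 kb in H3WT. Rad21l, a meiotic cohesin subunit, had 21.2 and 34.99 kb in K27M DMSO, against 25.9 and 35.6 kb in H3WT DMSO, with 10.5 kb of Ring1b in K27M and 4.59 kb in H3WT. The K27M lists of Ring1b and Suz12 were longer than the H3WT lists over all autosomes as well.

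For meiotic entry and germ cell regulators the genes were Cpeb1, Lhx8 and Bnc1. Cpeb1, which controls translation of stored oocyte mRNA, had 8.48 and 25.7 kb in K27M DMSO, against 68.6 and 91.1 kb in H3WT DMSO. Lhx8, a homeobox factor of oocytes and forebrain, had 19.7 and 23.4 kb in K27M DMSO, against 19.7 and 26.1 kb in H3WT DMSO. Bnc1, a zinc finger protein of germ cells and keratinocytes, had 14.5 and 20.6 kb in K27M DMSO, against 25.03 and 43.2 kb in H3WT DMSO. Meioc, which keeps germ cells in meiotic prophase and is named here after its values were seen, had 12.7 kb of Ring1b in K27M and 0 kb in H3WT.

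For the piRNA pathway the genes were Gtsf1, Rnf17 and Tdrd9. Gtsf1, a zinc finger partner of Piwi proteins, had 0 and 1.19 kb in K27M DMSO, against 9.40 and 30.7 kb in H3WT DMSO. Rnf17 had 0 and 0 kb in K27M DMSO, against 1.68 and 38.3 kb in H3WT DMSO, and Tdrd9 had 0 and 0 kb in K27M DMSO, against 8.58 and 29.8 kb in H3WT DMSO. Both encode Tudor-domain proteins, as do Tdrd5 and Tdrd1, which had peaks in both K27M DMSO libraries; at Tdrd5 these gave 1.57 and 5.68 kb, against 7.31 and 14.4 kb in H3WT DMSO.

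For spermatids and sperm the genes were Catsper3, Spag6 and Dpy19l2, and for oocytes Mos, Wee2 and Astl. Spag6, a gene of the sperm tail axoneme, had 20.9 and 27.2 kb under H3K27me3 peaks in K27M DMSO, against 3.23 and 13.0 kb in H3WT DMSO, and 16.2 kb of Ring1b in K27M against 3.57 kb in H3WT. More H3K27me3 length in both K27M than in both H3WT libraries was found at 0.314% of all genes with any DMSO peak. Dpy19l2, needed for acrosome attachment, had 0 and 9.86 kb in K27M DMSO, against 16.3 and 56.1 kb in H3WT DMSO. Mos, the kinase that holds the egg in meiotic arrest, had 18.6 and 21.4 kb in K27M DMSO, against 19.5 and 21.4 kb in H3WT DMSO. The 21.4 kb is its whole window in both genotypes, so no greater length could be measured. Wee2, an oocyte kinase, had 7.26 and 19.4 kb in K27M DMSO, against 25.1 and 38.0 kb in H3WT DMSO, and Astl, an egg protease gene, had 3.75 and 10.2 kb in K27M DMSO, against 13.2 and 24.8 kb in H3WT DMSO, in part over Adra2b. Of the 152, peaks under EPZ were called at Lhx8, with 5.62 and 9.10 kb in K27M EPZ and 8.32 and 8.49 kb in H3WT EPZ, and at Catsper3, a sperm calcium channel gene. At Catsper3, 90.8% to 97.2% of the EPZ length lay over the neighbouring homeobox gene Pitx1.

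The pattern over the 12 libraries was compared with that of all other autosomal genes at least 1 Mb away, by the mean absolute difference in the share of the window under peaks. The nearest gene was Gdf6 for Sycp2 (4.23 percentage points), Fam241b for Sycp1 (1.02), Tmem126b for Dazl (2.24), Flt3 for Mov10l1 (0.289), Foxq1 for Zpbp2 (4.87) and Prr19 for Tdrd1 (0.565), each over 12 libraries. The libraries with a peak were not always equal in number: Fam241b had peaks in 2 and Sycp1 in 4, Gdf6 in 9 and Sycp2 in 7, and Prr19 in 5 and Tdrd1 in 6. Libraries in which both genes are at 0 lower the mean difference.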

How the data were processed

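Peak lists of 12 ChIP-seq libraries were analysed, and the 2 IgG libraries were not analysed here. Per the submitters' processing notes, Bowtie 1.1.2 and the build mm10 were used. Which program called the peaks, at what threshold and from how many reads is not given in the sources used here. Each deposited list holds the chromosome, start and end of the peaks, 1 list per library. The deposited score column is 0 in every line and was not used. Per the labels' protocols, chromatin was crosslinked with 1% formaldehyde and sonicated. Sample titles and descriptions gave the groups.

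Peaks that touched within a library were merged, giving 201 to 59899 per library, the narrowest 1001 bp wide. Windows ran from 10 kb before to 10 kb after each RefSeq gene of GRCm38.p6, whose chromosomes are those of mm10. An overlap of 1 bp counted. Gene starts, strands and promoter sequences came from the RefSeq promoter table (16457 genes). Python 3.11.15, NumPy 2.4.6 and pandas 2.3.3 were used, and the scripts were tested on simulated peaks. The genes and lists were chosen with earlier results of these data known, so no test was made. All 10 genes are named. Of the genes of the wider lists that a rule named by summed covered length, up to 6 per list, the first 3 per list are given, with Meioc and Tdrd5 added after their values were seen. Genes nearest in pattern are also named. Gene sets were compared by counts and medians only. The alternatives were other windows, wider peaks, a longer overlap, leaving out each replicate and, chosen after seeing the data, leaving out peaks that overlap another gene.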

Additional observations from a re-analysis of the deposited data

How the results depend on the processing

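Under the alternatives tried, most values held their direction. For 8 genes with a DMSO peak, K27M minus H3WT was recomputed under 7 alternatives: 53 of the 56 differences were below 0, 2 were at 0 and 1, that of Mov10l1, was above 0 (0.968 kb, with peaks that overlap another gene left out). That alternative was chosen after seeing the data. No alternative matched the genotypes for list length. Of all genes with a peak in both H3WT DMSO libraries, 92.7% had less length in K27M within each replicate. Between K27M DMSO replicate 2 and H3WT DMSO replicate 1, which covered similar autosomal lengths, 5 genes had less in K27M. Mov10l1 (7.86 against 6.65 kb) and Tdrd1 (8.75 against 7.85 kb) had more. Of 82 recomputed counts, 16 moved beyond 1.5 times. Over the gene body alone, and also without peaks that overlap another gene, 2 genes in place of 4 had a peak in both K27M DMSO libraries, so 2 kept one in both; Suz12 was then at 1 gene in K27M and 0 in H3WT. By construction these settings drop peaks near Panx2 and Vwa2 and the Suz12 peaks by Ikzf3. The genes lost in K27M were 2 over the gene body, 2 with peaks of at least 3 kb, and 2 to 3 with 1 replicate left out, in place of 1: without replicate 1 they were 2 and without replicate 2 they were 3. With peaks of at least 3 kb, Suz12 was at 0 genes in H3WT, and 28 in place of 48 genes of the wider lists had a peak in every H3WT DMSO library; with 1 replicate left out this count was 48 to 96. Within 2.5 kb of the start, 4 genes in place of 2 had peaks in every H3WT DMSO library. In all, 9 differences moved by more than 1 SD without reversing. The reversed difference of Mov10l1 also moved by more than 1 SD and is not among these 9. No model was fitted, so there is no fit with a replicate block, and lengths within each replicate number are given as values. Called peaks limit every value: a level below the threshold cannot be seen, read depth is unknown, and the cause of differences between replicates was not tested.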
